A study of Mus musculus with 16 samples.

Results

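Open chromatin in haematopoietic progenitors that carried Flt3-ITD together with loss of 1 Runx1 copy was set against that of wild-type progenitors. Peaks on chromosomes 1 to 19 of the 2 lists were merged wherever they overlapped, which gave 91058 regions, out of 118981 over all 8 lists of the series. A region with peaks in both lists was termed shared, one with a peak in the Flt3-ITD/Runx1-het list only was termed gained, and one with a peak in the wild-type list only was termed lost. There were 61798 shared regions (67.9%), 19261 gained regions (21.2%) and 9999 lost regions (11%). Peaks on X and Y were left out.

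The cells were labelled as haematopoietic progenitors of the multipotent type, from mice 21 days old, in every group. Set 1 held wild type, each single mutant (Flt3-ITD or Runx1-het) and the double mutant, Flt3-ITD with Runx1-het. Set 2 held its own wild type, Flt3-ITD, the leukaemia fusion gene NUP98-HOXD13, and that fusion combined with Flt3-ITD. Each group had 2 samples and 1 deposited peak list. The labels used here do not say how the sets differ, what sorting gate was used, how the Runx1 copy was lost, whether Flt3-ITD was carried on 1 or both copies, or whether the samples of a group came from separate mice. With 1 list per group there was no spread between samples, so no test between genotypes was possible and every count below is a description. The nearest thing to a yardstick was the comparison of the 2 wild-type lists, which also holds whatever else differs between the sets.

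ATAC-seq marks open DNA by letting the Tn5 transposase insert sequencing adapters where nucleosomes leave room, chiefly promoters and enhancers. Flt3 is the receptor tyrosine kinase of early progenitors, and its internal tandem duplication (ITD) makes it signal without ligand through STAT5 and the MAPK pathway. Runx1 is a transcription factor that binds enhancers of myeloid, lymphoid and megakaryocyte genes, and both lesions recur together in acute myeloid leukaemia.

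Peaks were ranked within their own list by the authors' −log10 p-value, and a rank is given as a percentile, where 0% is the strongest peak. A region in the top 25% of its own list was termed strong. Ranks describe the order within 1 list and show no change between lists of different length. The double mutant list held 119192 autosomal peaks in 82095 regions (46.717 Mb), and the set 1 wild-type list held 110352 peaks in 72460 regions (44.295 Mb). The 8 lists ranged from 58497 to 88774 regions, with set 2 Flt3-ITD the shortest and set 2 wild type the longest. Read depth was unknown. Marker genes were checked for regions within 2 kb of the gene. All 9 progenitor markers on chromosomes 1 to 19 (Kit, Ly6a, Flt3, Cd34, Cd48, Gata2, Meis1, Hoxa9 and Myb) had a region in both lists. Of 4 granulocyte and monocyte markers, 4 had a region in the double mutant list and 3 in the wild-type list, with 9 and 6 regions. Markers of other lineages mostly had one too: 3 of 3 B cell, 3 of 3 megakaryocyte and erythroid, 3 of 3 stromal and 2 of 2 dendritic cell markers in each list. Ncr1, a natural killer cell receptor, had none that near in either list, though 1 shared and 1 gained region within 100 kb had it as nearest gene. Ly6c2 of monocytes and Mcpt8 of basophils had one in the double mutant list only. These counts are given without the share over all genes, and the double mutant list was the longer one. Peaks near a marker are not expression, and in bulk samples a change in the mix of cells and a change within cells cannot be told apart.

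The sequences shown first are the start-site windows of genes on which the lists differed, each with 250 bases before and 50 bases after the start, read 5′ to 3′ on the gene's strand (RefSeq, GRCm38.p6). Capitals mark matches, on either strand, to 5 short motifs: TGTGGT (RUNX), TTCNNNGAA (STAT), GGAAGT (ETS), TGANTCA (AP-1) and TTGCNNAA (C/EBP). A match is a description of letters and not a bound site. Ctsg (cathepsin G, a neutrophil granule protease) and Ly6c2 (a monocyte surface protein) had a gained region over the start that neither wild-type list held. Both were picked after their values were seen. The Ctsg window (chr14:56102525-56102824, minus strand) held 1 RUNX, 1 STAT and 1 ETS match. The Ly6c2 window (chr15:75111888-75112187, minus strand) held 1 RUNX and 2 ETS matches and no CpG.
Ctsg: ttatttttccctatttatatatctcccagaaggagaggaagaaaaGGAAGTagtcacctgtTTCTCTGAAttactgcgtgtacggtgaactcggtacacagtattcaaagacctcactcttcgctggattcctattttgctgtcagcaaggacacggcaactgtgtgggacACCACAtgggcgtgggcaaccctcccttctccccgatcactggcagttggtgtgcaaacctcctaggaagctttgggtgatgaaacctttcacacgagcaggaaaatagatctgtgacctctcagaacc
Ly6c2: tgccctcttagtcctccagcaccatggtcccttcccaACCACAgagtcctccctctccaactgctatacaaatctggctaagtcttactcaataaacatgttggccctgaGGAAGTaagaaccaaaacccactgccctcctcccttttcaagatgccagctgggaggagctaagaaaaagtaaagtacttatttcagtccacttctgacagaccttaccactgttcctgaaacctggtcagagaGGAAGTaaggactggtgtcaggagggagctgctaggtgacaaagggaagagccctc

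Rptor (the raptor subunit of the growth kinase complex mTORC1) and Kctd11 (an adaptor of a ubiquitin ligase) had strong gained regions over the start. The Rptor window (chr11:119602655-119602954, plus strand) held none of the 5 motifs and 13 CpG. The Kctd11 window (chr11:69880936-69881235, minus strand) held 1 ETS and 1 AP-1 match and 23 CpG.
Rptor: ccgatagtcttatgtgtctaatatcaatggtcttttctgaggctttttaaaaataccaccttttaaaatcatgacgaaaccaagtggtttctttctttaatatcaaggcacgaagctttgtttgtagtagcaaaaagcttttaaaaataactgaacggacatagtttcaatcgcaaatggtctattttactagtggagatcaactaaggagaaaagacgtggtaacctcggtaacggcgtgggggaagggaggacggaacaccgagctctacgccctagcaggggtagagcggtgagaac
Kctd11: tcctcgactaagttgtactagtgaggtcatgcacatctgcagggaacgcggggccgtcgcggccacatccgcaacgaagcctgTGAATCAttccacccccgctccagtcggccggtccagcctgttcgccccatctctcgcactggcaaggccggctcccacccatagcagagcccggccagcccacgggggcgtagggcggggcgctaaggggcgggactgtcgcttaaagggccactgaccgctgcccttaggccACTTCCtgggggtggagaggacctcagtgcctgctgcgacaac

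The windows of 4 genes with a lost region over the start follow. Polrmt is the mitochondrial RNA polymerase (chr10:79746532-79746831, minus strand), Clba1 encodes a clathrin-binding protein (chr12:112808725-112809024, plus strand), Ndn encodes necdin, an imprinted restraint on cell division that is active in stem cells (chr7:62348027-62348326, plus strand), and Kcnt2 encodes a potassium channel (chr1:140245468-140245767, plus strand). Polrmt and Clba1 held no match, Ndn held 1 C/EBP match, and Kcnt2 held 1 RUNX and 1 ETS match.
Polrmt: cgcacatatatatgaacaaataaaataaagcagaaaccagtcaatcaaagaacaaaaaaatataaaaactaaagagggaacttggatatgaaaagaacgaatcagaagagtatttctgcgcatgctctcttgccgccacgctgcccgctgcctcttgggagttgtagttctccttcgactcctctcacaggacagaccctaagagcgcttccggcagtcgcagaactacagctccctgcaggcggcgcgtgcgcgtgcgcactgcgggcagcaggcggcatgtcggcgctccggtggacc
Clba1: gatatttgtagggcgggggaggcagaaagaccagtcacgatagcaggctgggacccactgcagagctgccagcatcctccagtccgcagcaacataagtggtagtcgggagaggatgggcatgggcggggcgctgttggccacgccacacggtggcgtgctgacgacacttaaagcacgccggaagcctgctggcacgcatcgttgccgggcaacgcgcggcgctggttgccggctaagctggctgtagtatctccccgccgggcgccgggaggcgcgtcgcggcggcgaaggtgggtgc
Ndn: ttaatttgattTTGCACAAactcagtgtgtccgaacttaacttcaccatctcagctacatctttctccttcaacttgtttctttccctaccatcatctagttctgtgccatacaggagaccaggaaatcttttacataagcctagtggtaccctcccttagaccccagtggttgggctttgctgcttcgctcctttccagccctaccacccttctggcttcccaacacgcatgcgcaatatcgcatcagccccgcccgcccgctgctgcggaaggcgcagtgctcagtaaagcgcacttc
Kcnt2: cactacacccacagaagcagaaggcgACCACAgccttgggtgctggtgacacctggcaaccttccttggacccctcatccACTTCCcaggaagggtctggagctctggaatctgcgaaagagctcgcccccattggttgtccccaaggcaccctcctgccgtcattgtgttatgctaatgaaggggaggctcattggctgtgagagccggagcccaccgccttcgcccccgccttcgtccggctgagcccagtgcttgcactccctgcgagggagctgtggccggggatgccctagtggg

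Over all such windows, the gained ones were poorer in CpG and richer in AP-1 and STAT letters than the shared ones. A gained region lay over 330 of 20085 windows, a lost region over 276, a shared region over 12014, and no region over 7464. The median number of CpG per window was 22 in shared, 10 in gained, 13 in lost and 3 in unoccupied windows. TGANTCA was present in 13.33% of gained, 7.25% of lost, 4.23% of shared and 7.06% of all windows. TTCNNNGAA was present in 11.52% of gained, 6.88% of lost, 6.24% of shared and 7.78% of all windows. Unoccupied windows, which are poorest in CpG, had shares near those of the gained ones, 11.32% for TGANTCA and 10.12% for TTCNNNGAA. TGTGGT hardly separated gained from lost windows, with 14.55% and 13.77%, against 11.86% of shared and 14.76% of all windows. GGAAGT was present in 21.82% of gained, 21.38% of lost and 27.88% of shared windows, and in 24.99% of all. TTGCNNAA was present in 11.82% of gained, 10.51% of lost and 7.55% of shared windows, and in 10.28% of all. Among gained windows with TGANTCA or TTCNNNGAA, 1 of 44 and 1 of 38 shared bases with another motif, and none did with the other 3.

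Gained and lost regions were weak and narrow for the most part. The median percentile was 29.6% for shared, 67.7% for gained and 71.2% for lost regions, with a median −log10 p of 69.1, 19.9 and 16.9. Here and below, shared regions grouped by rank were placed by their double mutant peak. In the set 1 wild-type list the shared medians were 32.5% and 60.2. Ranks beyond 50% held 83.1% of gained and 90.8% of lost regions, against 22.5% of shared ones. The median width was 640 bp for shared, 353 bp for gained and 358 bp for lost regions, and 1 kb was reached by 16.9%, 0.955% and 1.5%. At like rank the order was the same: among strong regions, shared ones had a median of 785 bp, gained ones 575.5 bp and lost ones 622.5 bp. A shared region was joined from peaks of 2 lists and the others from 1, which widens shared regions by construction. How much of the gap in width came from this was not tested. Strong regions numbered 184 among the gained (0.202% of all) and 32 among the lost (0.0351%). The weakest strong peak had a −log10 p of 83.061 in the double mutant list and 80.3266 in the wild-type list, and the next peaks below had 83.0587 and 80.3263.

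**Figure D1:**
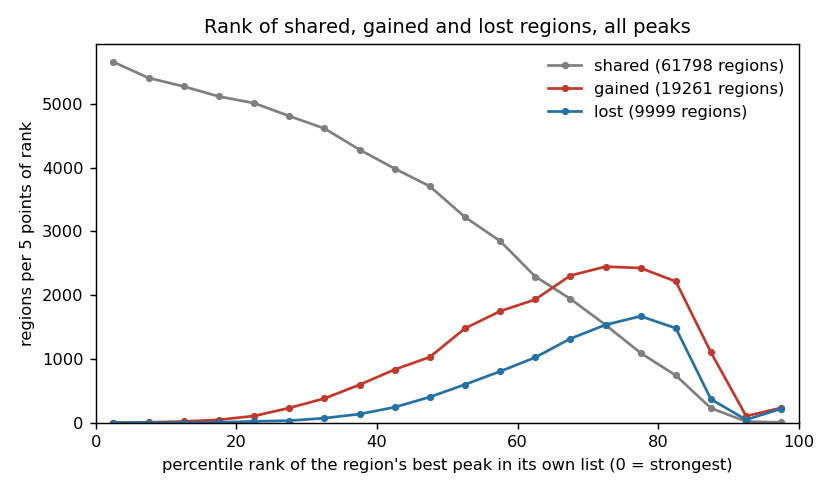
Regions per 5 percentile points of rank (vertical axis) against the rank of the best peak in its own list (horizontal axis, 0 is strongest), for the 61798 shared, 19261 gained and 9999 lost regions of the double mutant and set 1 wild-type lists. Shared regions, placed by their rank in the double mutant list, peak at the strongest ranks, and gained and lost regions peak between 70 and 80.

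They also sat away from gene starts. Start sites were known for 16457 of 20665 genes and for none on chromosome 18, so shares at starts can be too low. On chromosomes 1 to 17 and 19, 19.1% of shared regions lay within 1 kb of a known start, against 4.02% of gained and 6.15% of lost ones. Within 2.5 kb the shares were 22.06%, 7.43% and 9.79%, in the same order. Inside gene spans lay 50.7% of gained, 48.7% of lost and 43.9% of shared regions. A shared region lay within 5 kb of 42.8% of gained and 46.2% of lost regions, and 43.9% of shared regions had another shared one that near. The gained share varied from 18.81% on chromosome 7 to 24.36% on chromosome 11.

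Gains outnumbered losses with all peaks and with equal numbers of peaks. The double mutant list held more regions, 82095 against 72460, and an excess of gains follows from that, so it is no result either. Equal numbers of peaks hardly changed the number of regions. With the 110352 highest peaks of each list, 61786 regions were shared, 19004 were gained (20.9%, of which 134 strong, 0.148%) and 10011 were lost (11%, of which 32 strong, 0.0352%). That step dropped 8840 double mutant peaks, but only 371 regions, because most weak peaks were further summits of a region that held a better one. The last peak kept had a −log10 p of 5.1072 and the first left out 5.1063. When each list was instead held to its best 72460 merged regions, an alternative chosen after seeing the data, 12470 regions were gained (14.8%) and 12517 lost (14.9%), with 40 strong gains (0.0475%) and 7 strong losses (0.00831%). Near-equal counts of gains and losses follow there from the equal number of regions, so that balance is no result, and 70.4% of regions were shared. At that size the set 2 wild-type list against the set 1 wild-type list shared 72.8% and had 11373 gained (13.7%) and 11191 lost regions (13.5%), with 27 strong gains (0.0325%) and 1 strong loss (0.0012%). Lists of equal genotype thus shared only a slightly larger part of their regions than the double mutant and its wild type. With all peaks, 23256 regions were gained (24.5%) and 7107 lost (7.49%) between the wild-type lists, with 308 strong gains (0.324%) and 1 strong loss (0.00105%). Against the set 2 wild type, also at equal size, the double mutant had 12005 gained (14.3%) and 12207 lost regions (14.5%), with 27 strong gains (0.0321%) and 54 strong losses (0.0643%). With all peaks these were 13573 (13.4%), 20488 (20.2%), 105 (0.103%) and 359 (0.354%), so losses outnumbered gains. There the wild-type list was the longer one, with 88774 regions.

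The single mutants were compared with the same set 1 wild-type list. Flt3-ITD had 16807 gained (19%) and 9254 lost regions (10.5%), with 119 strong gains (0.134%) and 10 strong losses (0.0113%). Runx1-het had 18681 gained (20.7%) and 7966 lost regions (8.81%), with 82 strong gains (0.0907%) and 4 strong losses (0.00443%). The counts of the double mutant were the highest of the 3 for strong gains and strong losses.

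The regions nearest to granulocyte and monocyte genes were gained more often than those of all genes, against both wild-type lists. Each region was assigned to the nearest protein-coding gene span within 100 kb, and over all genes 20.8% of such regions were gained and 10.6% lost. Of 157 regions near 24 granulocyte and monocyte genes, 48 were gained (30.6%) and 16 lost (10.2%). Neither wild-type list held 32 of the 48, which is 20.4% of the list's regions, against 10.8% over all genes. With the set 2 wild type in its place, 37 of 157 regions were gained (23.6%, against 13.4% over all genes) and 17 lost (10.8%, against 18.8%). With equal numbers of merged regions, the gained share was 24.3% against the set 1 wild type (14.6% over all genes) and 27.1% against the set 2 wild type (14.4%). Between the wild types, set 2 against set 1 gave 9.09% gained (12.7% over all genes) and 18.2% lost (13.6%) at equal size. With all peaks it gave 20.3% gained (23.2%) and 10.9% lost (7.59%). The set 2 wild type was thus itself poor in these regions beside set 1. Read as set 1 over set 2, the wild types differ in the same direction as the double mutant against set 2. The part of this in the gains against set 2 was not tested. These comparisons share the double mutant list or a wild-type list, so they are not independent of each other.

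**Figure D2:**
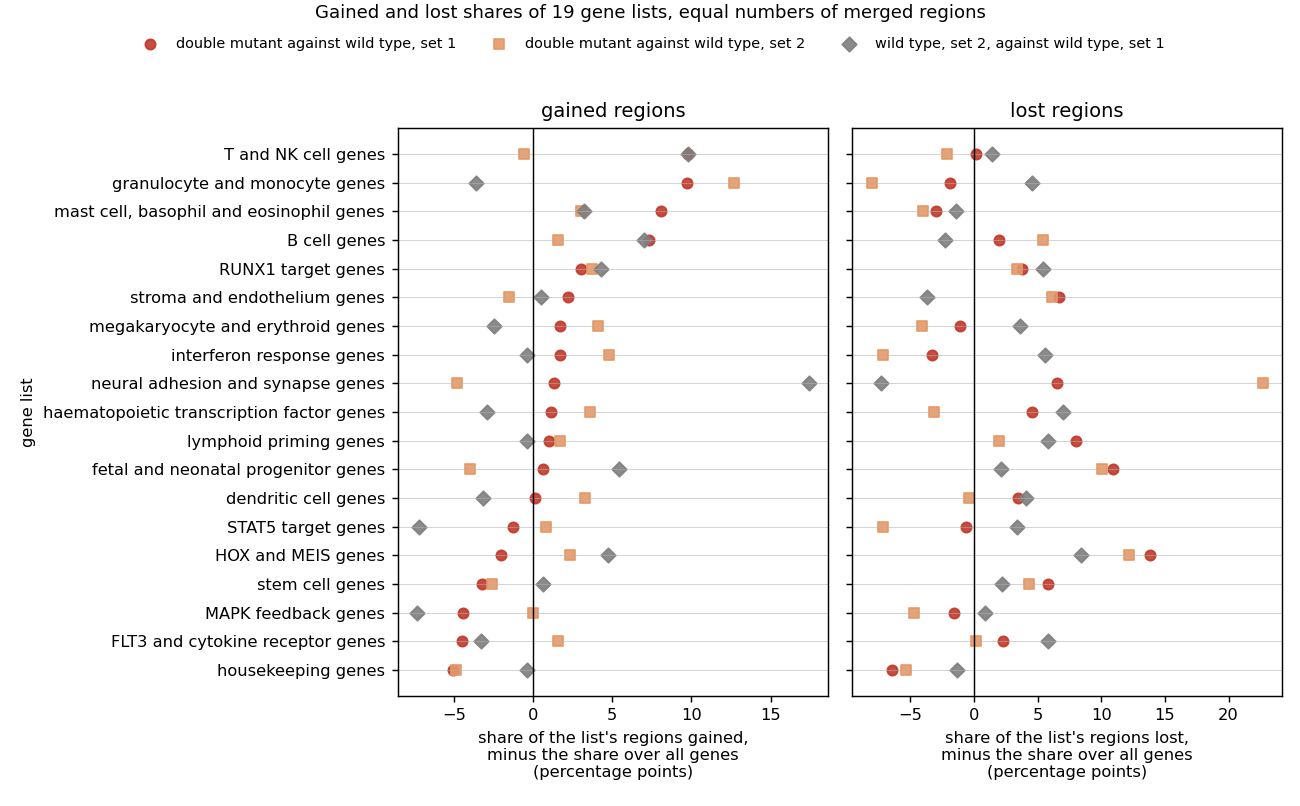
Share of each gene list's regions that were gained (left) or lost (right), minus the share over all protein-coding genes in the same comparison, in percentage points, with equal numbers of merged regions per list. Circles show the double mutant against set 1 wild type, squares against set 2 wild type, and diamonds the set 2 against the set 1 wild type. Granulocyte and monocyte genes lie right of 0 for gains in both double mutant comparisons. For set 2 over set 1 wild type they lie left of it for gains and right of it for losses, which swapping those 2 lists would reverse.

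Both single mutants gave lower shares for these genes than the double mutant. Against the set 1 wild type, 20.7% of granulocyte and monocyte regions were gained in Flt3-ITD (18.5% over all genes) and 26.2% in Runx1-het (20.1% over all genes). Against the set 2 wild type they were 14.5% in set 1 Flt3-ITD (10.8% over all genes) and 19.3% in Runx1-het (11.9% over all genes). The 3 genotypes were set against the same wild-type lists, and the differences between them were not tested. In set 2 the share was 5.38% in Flt3-ITD (4.48% over all genes), 14.7% with the fusion gene alone (10.8%) and 13.7% with the fusion plus Flt3-ITD (10.4%).

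The most gained regions lay near 2 transcription factor genes. Irf8, a factor that directs progenitors to monocytes and dendritic cells, is also in the dendritic cell list and had 10 gained, 3 lost and 10 shared regions, and 7 of the gained ones were in neither wild-type list. Cebpb, a C/EBP factor of emergency granulopoiesis, had 8 gained, 1 lost and 13 shared regions, and 7 of the gained ones were in neither. Without these 2 genes the gained share was 26.8% against the set 1 wild type, 19.8% against set 2, and 22.6% at equal region numbers, all still above the shares over all genes. Csf3r, the receptor for granulocyte colony-stimulating factor, had 2 gained regions of 7, and Klf4, a monocyte factor, 2 of 12, all absent from both wild types. Csf1r, the monocyte growth factor receptor, had 2 gained of 5, both with a peak in the set 2 wild type. Among granule genes, Ctsg had 3 gained of 4 and Prtn3 2 of 4, while Elane, S100a8, S100a9 and Ms4a3 had only shared regions and Mpo had 1 lost and 1 shared. The marker count above took each list's regions within 2 kb of a gene instead, and there Mpo had 2 regions in the double mutant and 1 in wild type, so the 2 assignments go opposite ways for Mpo.

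**Figure D3:**
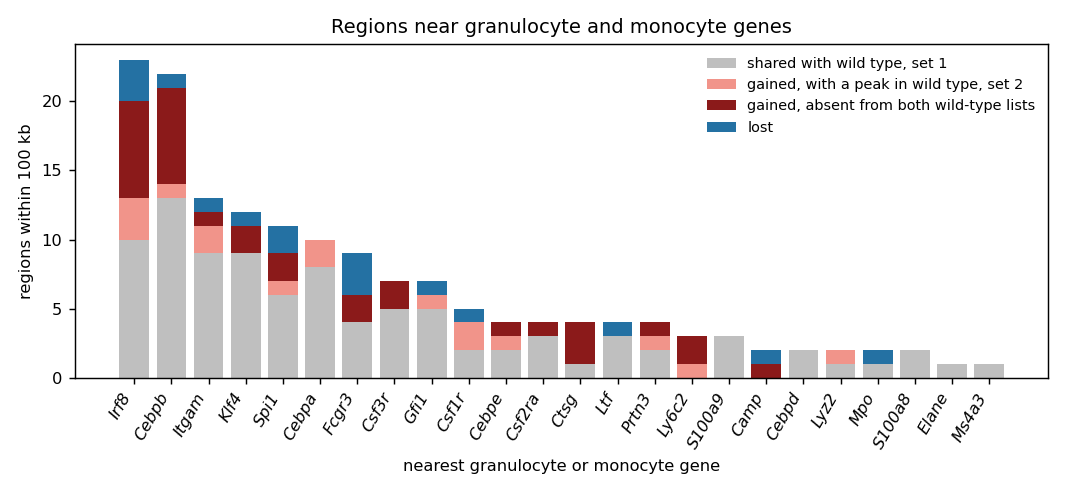
Number of regions within 100 kb (vertical axis) of each of 24 granulocyte and monocyte genes (horizontal axis), split into shared, gained with a peak in the set 2 wild type, gained and absent from both wild-type lists, and lost. Irf8 and Cebpb hold 18 of the 48 gained regions.

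At Spi1, which encodes the myeloid master factor PU.1, gains and losses lay side by side. A region inside the gene (chr2:91086370-91086678) ranked at 40.57% in the double mutant, 51.56% in set 1 Flt3-ITD, 82.48% in Runx1-het and 50% in the set 2 list with fusion plus Flt3-ITD, and was in neither wild-type list. A region 3345 bp from the gene span (chr2:91078323-91079029) ranked at 45.96% in the set 1 wild type and 61.21% in the set 2 wild type and was missing from the double mutant alone among the 8 lists. The gained Ctsg region nearest in rank to the top (chr14:56105118-56106114, 2544 bp from the start) ranked at 34.26% in the double mutant, 68.12% in set 1 Flt3-ITD and 52.93% in the fusion plus Flt3-ITD list, and had no peak in the other 5 lists. Cathepsin G thus had its strongest gained peak next to the gene. The Ctsg region over the start (chr14:56102308-56102794) ranked at 51.95% in the double mutant, and the only other lists that held it were set 1 Flt3-ITD, at 70.42%, and NUP98-HOXD13, at 74.66%. The Ly6c2 region over the start (chr15:75111753-75112176) ranked at 33.23% in the double mutant and between 54.24% and 78.69% in the 5 other mutant lists. Ly6c2 has a near-identical neighbour, Ly6c1, and reads that fit both cannot be told apart. None of the 48 gained regions was strong and 7 were in the top 50%, so the list's count rests on weak peaks. Of the 32 regions in neither wild type, 4 had a peak in set 2 Flt3-ITD, 6 with the fusion gene alone, 6 with both, and 20 in no set 2 list. Over all 9998 gained regions absent from both wild types, the shares were 9.95%, 20.1% and 22.9%, so those of the myeloid regions were close to the background.

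Lists of other cell types moved with them against the set 1 wild type. Regions near T and NK cell genes were gained in 31.1%, those near B cell genes in 28.8% and those near mast cell, basophil and eosinophil genes in 26.9%. Against the set 2 wild type, these were 13.6%, 14.3% and 14.6%, near the 13.4% over all genes. Between the wild-type lists, set 2 over set 1, T and NK cell regions were gained in 36.1% and B cell regions in 32.1%, against 23.2% over all genes. Their part in the myeloid count was not tested. Single regions near lineage genes were still found in the double mutant list and in no other of the 8: near Cst3, a cystatin of dendritic cells (chr2:148888694-148889439, 34.34%), inside Pax5, the B lineage factor (chr4:44565599-44566167, 58.53%), and near Cd74, the invariant chain (chr18:60795038-60795434, 40.18%).

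Regions near stem cell, HOX and fetal progenitor genes were lost more often than those of all genes. Against the set 1 wild type the lost share was 15.3% for stem cell genes (32 of 209), 20.2% for HOX and MEIS genes (23 of 114), 20.2% for fetal and neonatal progenitor genes (18 of 89) and 16.3% for lymphoid priming genes (45 of 276), against 10.6%. Against the set 2 wild type they were 26.1%, 31.6%, 29.7% and 22.1%, against 18.8%. The single mutants were also set against the set 1 wild type. In Flt3-ITD the lost shares, in the same order, were 12.9%, 18.1%, 15.5% and 14.4%, against 10.2% over all genes. In Runx1-het they were 10.8%, 15.9%, 10.5% and 9.06%, against 8.65%. Stromal and endothelial regions, with 17.3% lost in the double mutant against the set 1 wild type, were above the background too. Between the wild types at equal size, the lost share was 22% for HOX and MEIS, 19.4% for lymphoid priming, 15.8% for stem cell and 15.7% for fetal genes, against 13.6%, and the gained share was 17.4%, 12.3%, 13.3% and 18.1%, against 12.7%. Regions of these lists thus also came and went between lists of equal genotype. At that size the double mutant lacked 25.3% of fetal regions against the set 1 wild type and 23.4% against set 2. Of all regions, 14.4% and 13.3% were lost. In the same order, the shares were 28.2% and 25.5% for HOX and MEIS, 20.2% and 17.6% for stem cell, and 22.4% and 15.3% for lymphoid priming genes. Fetal genes were thus the furthest of these lists from their share between the wild types. Gains were near or under the background, with 18.2% for stem cell, 21.1% for HOX and MEIS and 19.6% for lymphoid priming genes, and somewhat above it for fetal genes, with 24.7%.

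Msi2, an RNA-binding protein that sustains stem cells, had 6 lost, 2 gained and 14 shared regions, and 4 of the lost ones were in the set 2 wild type. Prdm16, a stem cell factor, had 4 lost and 2 gained regions of 21. The Prdm16 region at chr4:154500213-154500803 ranked at 37.29% in the set 1 wild type and 24.9% in the set 2 wild type, had a peak in 6 lists, and had none in the double mutant or in set 2 Flt3-ITD. Mrc1, which encodes the macrophage mannose receptor, had 4 lost, 1 gained and 4 shared regions, the most losses of the fetal list with Hmga2 (4 lost, 8 gained). Foxo1, a factor of stem and lymphoid cells, had 5 lost and 5 gained regions, and all 5 lost ones were in the set 2 wild type. The reverse was seen at Gata2, a stem and mast cell factor. Its gained region 41069 bp away (chr6:88151921-88152822) was strong at 24.62% in the double mutant, weak at 65.01% in set 1 Flt3-ITD, and absent from the other 6 lists.

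STAT5, MAPK and interferon lists were mostly close to the background against the set 1 wild type, and the RUNX1 list was somewhat above it. Of regions near STAT5 target genes, 20.7% were gained and 10.8% lost, near MAPK feedback genes 18.5% and 8.33%, and near interferon response genes 18.5% and 8.28%. Against the set 2 wild type, interferon response regions were gained in 16% and lost in 11%, and STAT5 target regions in 16.2% and 14.9%, against 13.4% and 18.8%. RUNX1 target genes had 25.2% gained and 12.3% lost, but 12.5% gained against the set 2 wild type, where 13.4% of all regions were. With equal numbers of merged regions the RUNX1 gained share was 17.6% against set 1 (14.6% over all genes) and 18.1% against set 2 (14.4%). Between the wild types at that size it was 17% (12.7%). Against set 1 with all peaks, it was 32.8% in Runx1-het (20.1%) and 18.7% in Flt3-ITD (18.5%). Housekeeping genes had the lowest shares in the double mutant against the set 1 wild type, 14.9% gained and 5.97% lost. Among the remaining lists, dendritic cell genes had 20.4% gained and 14.4% lost, megakaryocyte and erythroid genes 20.4% and 9.15%, and haematopoietic transcription factor genes 21.3% and 14.7%. Genes of FLT3 and cytokine receptors had 16.1% gained and 12.2% lost, and stromal and endothelial genes 24% and 17.3%. Of 19 STAT5 target genes 16 had a gained region (84.2%, against 50.9% of all genes) and 11 a lost one (57.9%, against 33%), but these genes have more regions each than most. With nearest genes limited to 20 kb, 7 STAT5 target genes had a lost region.

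Within that list, Osm, Socs2 and Bcl2 were among the genes with gained regions that neither wild type held. Near Osm, an inflammatory cytokine, the region at chr11:4232604-4233092 ranked at 23.54% in the double mutant, 34.23% in set 1 Flt3-ITD, 73.44% in Runx1-het, 50.21% in set 2 Flt3-ITD and 35.59% where the fusion was combined with it, and was absent from both wild types and with the fusion alone. Socs2, a feedback inhibitor of cytokine signalling, was picked after its values were seen. It had 8 gained, 4 lost and 4 shared regions, and none of the 8 gained ones was in either wild-type list, a number that 16 of 16607 genes reached. The gained Socs2 regions ranked between 56.47% and 83.72% in the double mutant and the lost ones between 60.33% and 83.44% in the wild type, so both were weak. None of the 8 had a peak in set 2 Flt3-ITD, the shortest list, and 1 had one in NUP98-HOXD13. Bcl2, the survival gene, had 7 gained, 5 lost and 18 shared regions, and 6 of the gained ones were in neither wild type. The remaining gained region (chr1:106568804-106569438) was strong in the double mutant at 21.91%. It also had peaks in the set 2 wild type at 41.12% and in the 5 other mutant lists.

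Both mutated genes kept most of their regions, as regions at large did (67.9% shared). The Flt3 gene with 2 kb on each side held 8 shared regions, no gained and 1 lost region. The Flt3 promoter (chr5:147399931-147400721) ranked at 0.33% in the double mutant and 0.4% in the set 1 wild type, and stayed within the top 1.42% in all 8 lists. The lost Flt3 region (chr5:147354333-147354598) ranked at 76.27% in the set 1 wild type and 56.22% in Runx1-het, with no peak elsewhere. The Runx1 locus held 13 shared, 4 gained and 1 lost region of 18, shares near those over all regions. Its promoter nearer the middle of the gene span (chr16:92697178-92698981) ranked at 13.41% in the double mutant and 24.49% in the set 1 wild type, and the promoter at the far end (chr16:92825505-92826326) at 19.01% and 25.09%. The 4 gained Runx1 regions ranked between 56.4% and 85.76%, and 2 of them were in no other list. Peaks do not show whether a Runx1 copy is missing.

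Of the 184 strong gained regions, 129 (70.1%) had a peak in the set 2 wild type, against 99.8% of strong shared regions. The other 55 were in neither wild-type list. The foremost of these was inside Syt1, the calcium sensor of synaptic vesicles (chr10:108991266-108991858). It ranked at 5.46% in the double mutant (−log10 p 275.06), 19.12% in set 1 Flt3-ITD, 9.3% in set 2 Flt3-ITD and 24.56% in the fusion plus Flt3-ITD list, and had no peak in either wild type, in Runx1-het or with the fusion alone. The region near Col6a3, a collagen VI chain (chr1:90697000-90697648), ranked at 9.94% in the double mutant, 16.4% in set 1 Flt3-ITD and 12% in set 2 Flt3-ITD, and had no peak in the other 5 lists. The one near Gda, a guanine deaminase (chr19:21376527-21377513), ranked at 10.28% in the double mutant and was found in every mutant list but NUP98-HOXD13. Regions inside Adamts20 and Trhr were in no set 2 list: Adamts20, a secreted protease (12.43% in the double mutant, 33.63% in set 1 Flt3-ITD and 68.34% in Runx1-het), and Trhr, a hormone receptor (13.31% and, in set 1 Flt3-ITD, 71.02%). The region near Psap, a lysosomal protein precursor, ranked at 14% in the double mutant and 28.68% in set 1 Flt3-ITD. It was weaker in Runx1-het (55.59%), set 2 Flt3-ITD (91.35%) and fusion plus Flt3-ITD (64.55%). The region near Lag3, an inhibitory receptor of lymphocytes, ranked at 15.38% in the double mutant and 38.93% in set 1 Flt3-ITD. It also had peaks with the fusion alone (75.55%) and fusion plus Flt3-ITD (55.39%), but none in set 2 Flt3-ITD. As a list, neural adhesion and synapse genes had 22.5% of regions gained and 15.1% lost against the set 1 wild type, but 10.2% gained and 38.5% lost against the set 2 wild type. The set 2 wild-type list itself had 40.5% of such regions gained over set 1, and with equal numbers of merged regions the double mutant had 15.9% gained and 20.9% lost against set 1, so the sign of the balance for this list turned with the wild type and with list length.

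**Figure D4:**
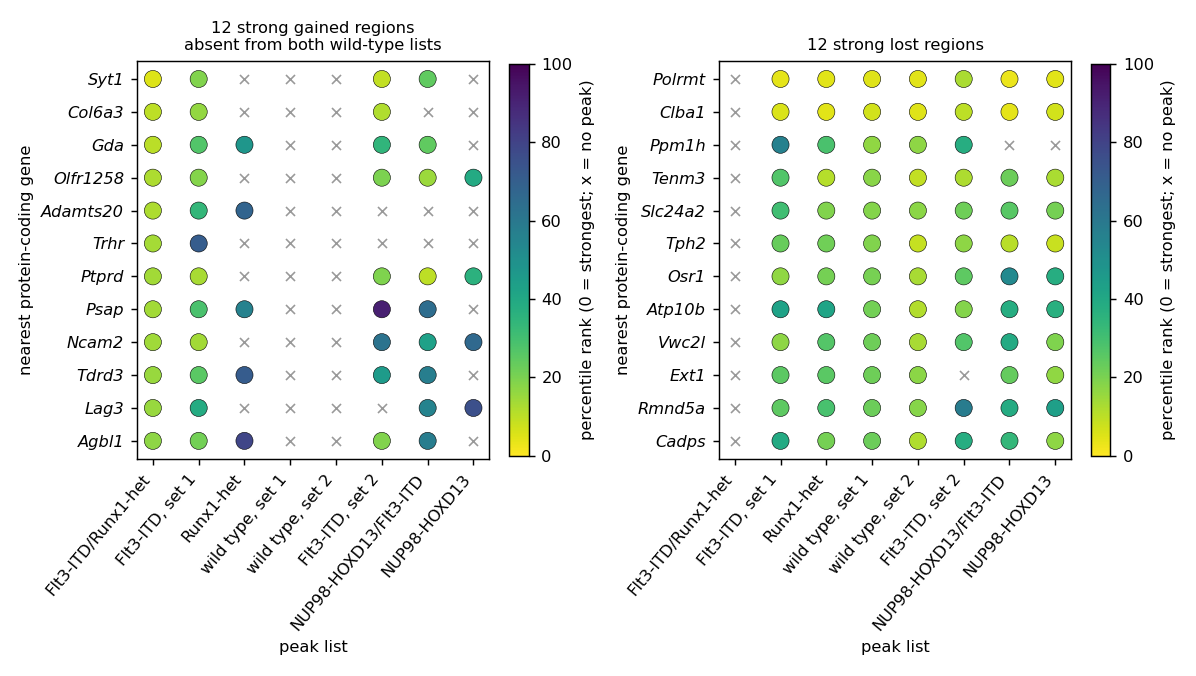
Percentile rank (colour, 0 is strongest) in each of the 8 peak lists (columns), with a cross where the list held no peak. On the left are 12 of the 55 strong gained regions absent from both wild-type lists, and on the right 12 of the 32 strong lost regions. Each 12 had the highest −log10 p, 1 per gene, and are named by nearest gene. By their choice the left regions lack peaks in both wild-type columns. The right regions by choice lack peaks in the double mutant column and have them in both wild-type columns. The Flt3-ITD columns hold most of the left regions, and nearly every other column holds the right ones.

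Strong gains absent from both wild types often recurred in set 2 lists with Flt3-ITD. Of these 55 regions, 37 (67.3%) had a peak in set 2 Flt3-ITD, 34 (61.8%) in the fusion plus Flt3-ITD list and 12 (21.8%) with the fusion alone. With equal numbers of peaks, the shares of 40 such regions were 77.5%, 65% and 25%. Of the 50 strong shared regions that the set 2 wild type lacked, 82% had a peak in each set 2 list with Flt3-ITD and 64% with the fusion alone. Weaker gains recurred less: at ranks from 25% to 50% the shares were 30.6%, 40.4% and 30.6%, and at ranks from 75% to 100% they were 4.97%, 15.9% and 14.7%. Shared regions that the set 2 wild type lacked fell likewise, so the decline was not particular to gains. Their shares were 40.4%, 60.3% and 58% at ranks from 25% to 50%, and 12.2%, 35.3% and 30.1% from 75% to 100%. Over all 9998 gained regions absent from both wild types, 995 (9.95%) had a peak in set 2 Flt3-ITD. From the other side, 964 of the 4327 regions that set 2 Flt3-ITD gained over its own wild type (22.3%) were gained in the double mutant. For the fusion plus Flt3-ITD this was 2181 of 10100 (21.6%), and for the fusion alone 1936 of 11062 (17.5%). These overlaps are given without a background share. At ranks beyond 50% set 2 Flt3-ITD had the lowest shares of the 3, so its place at the top was limited to the strong regions. It was also the shortest list, and the part of list length in these shares was not tested.

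**Figure D5:**
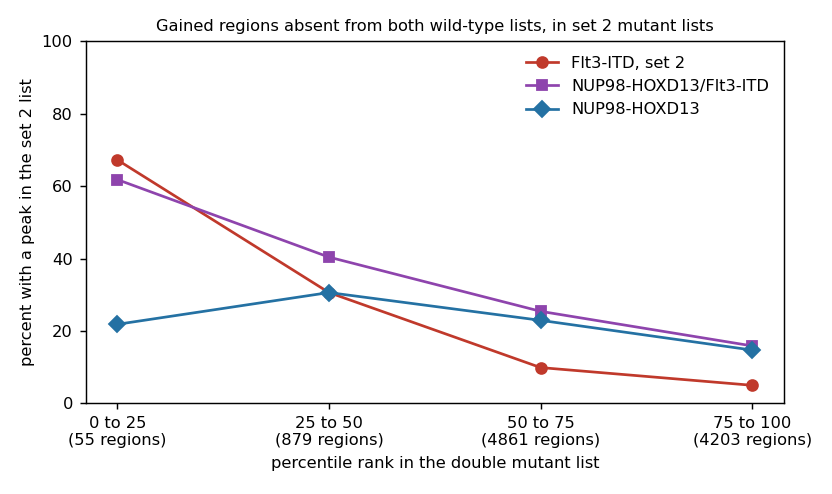
Percent of gained regions absent from both wild-type lists that had a peak in each of 3 set 2 mutant lists (vertical axis), by rank in the double mutant list (horizontal axis, number of regions in brackets). In the top 25% the share is 67.3% for Flt3-ITD, 61.8% for the fusion plus Flt3-ITD and 21.8% for the fusion, and it falls to 15.9% or less in the last group.

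The strongest losses were regions that nearly all other lists held. All 32 strong lost regions had a peak in the set 2 wild type, and 24 of them had one in all 4 set 2 lists. Of strong shared regions 99.8% had a set 2 wild-type peak too, so that presence was not particular to the losses. The Polrmt promoter (chr10:79746099-79747089) ranked at 4.7% in the set 1 wild type (−log10 p 284.51), 4.61% in the set 2 wild type and between 2.96% and 12.74% in the 5 other mutant lists, and the double mutant list held no peak there. The Clba1 promoter (chr12:112808654-112809666) ranked at 6.73% and 5.05% in the wild types and between 4.08% and 9.97% in the 5 other mutant lists. Both were thus missing from the double mutant list alone. The Ndn promoter (chr7:62348110-62348970) ranked at 24.45% in the set 1 wild type and 8.31% in the set 2 wild type, and was missing from the double mutant and NUP98-HOXD13/Flt3-ITD lists. Away from promoters, regions inside Tenm3, a neural adhesion protein (17.63% in the set 1 wild type and 9.3% in the set 2 wild type), Slc24a2, an ion exchanger (18.42% and 17.28%), and Cadps, a regulator of vesicle release (22.52% and 11.87%), were missing from the double mutant alone. The region near Ppm1h, a phosphatase (16.7% and 17.1%), was also missing from both NUP98-HOXD13 lists.

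Strong gains over a start were the mirror image. There were 6 over a known start, at Rptor, Fkbpl, Kctd11, Ncs1, Zfp710 and Bcdin3d, and each had a peak in all 7 lists other than the set 1 wild type. The Rptor region (chr11:119602786-119603854) ranked at 14.56% in the double mutant, 20.49% in the set 2 wild type and between 12.42% and 30.16% in the 5 other mutant lists. The Kctd11 region (chr11:69880542-69881698) ranked at 16.91% in the double mutant and 11.03% in the set 2 wild type. The Zfp710 region (chr7:80024496-80025538) ranked at 21.7% in the double mutant and between 32.61% and 78.05% in the other lists that held it. These promoter gains were therefore absences from 1 wild-type list, as were 129 of all 184 strong gains. The regions at Syt1 and Col6a3 were chosen for their absence from both wild types, so they make no contrast with promoters.

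Shared regions kept much of their order. With equal numbers of peaks, the median absolute difference in rank was 5.4 points, and 3176 of 61786 shared regions (5.14%) differed by more than 25 points, 1514 of them higher in the double mutant and 1662 higher in wild type. The widest shift towards the double mutant was inside Zfp516, a zinc finger gene (chr18:82976339-82977132), at 31.98% in the double mutant and 99.93% in the set 1 wild type. At the Elovl6 start, a fatty acid elongase (chr3:129532058-129532640), the ranks were 34.14% and 99.76%, and the other lists that held it lay between 40.62% and 45.72%, so the set 1 wild type was the one apart. The widest shift the other way was inside Defb47, a defensin gene (chr14:62998571-62999416), at 96.6% in the double mutant and 18.88% in wild type. The 6 other lists put Defb47 between 11.27% and 22.52%, so there the double mutant was the one apart. Inside Ebf3 (chr7:137289067-137289819) the ranks were 93.77% and 23.5%, with 13.84% to 47.86% in the other lists. Inside Auts2 (chr5:131584157-131585143), the double mutant at 16.53% and set 1 Flt3-ITD at 21.93% were set against the set 1 wild type at 77.55% and the set 2 wild type at 70.8%.

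Large genes held the most gained and lost regions. Foxp1, a factor of B cell and monocyte development, had 20 gained, 8 lost and 41 shared regions over a span of 597.4 kb, with 8 of the gained ones in neither wild type. Atxn1 had 17 gained and 2 lost regions of 38, and Rora 15 gained and 3 lost of 37. Bach2, a repressor of myeloid genes in lymphoid progenitors, had 14 gained, 3 lost and 36 shared regions. Etv6, a repressor needed by blood stem cells and a frequent partner in leukaemia fusions, had the most losses, 14, beside 13 gained and 23 shared regions. The Etv6 region at chr6:134243649-134243938 ranked at 43.78% in the set 1 wild type and between 29.87% and 81.7% in the 6 other lists that held it, and only the double mutant list lacked it. Over all 16607 genes with a region, the median was 1 gained and 0 lost regions per gene, and 671 genes had 5 or more gained and 179 had 5 or more lost.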

How the data were processed

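ATAC-seq of 16 samples in 8 groups of 2 was used, and 4 of the samples entered the main comparison. Reads were processed with Bowtie2 and MACS2 on mm10 (GRCm38), per the submitters' processing notes; the sources used here give no version, threshold, read shift or handling of duplicates. The labels tie 1 list to each pair of samples. Each deposited peak carries the authors' score (413 to 1000), their fold enrichment (a ratio) and their −log10 p, and ranks used −log10 p within 1 list only.

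Peaks on chromosomes 1 to 19 were joined within and over lists where they had 1 bp or more in common (Python 3.11.15, pandas 2.3.3), a step tested on simulated data. Alternatives were equal numbers of top peaks, the better 50% of each list, the set 2 wild type, other limits for strong, wider merging, and nearest genes within 20 kb; equal numbers of merged regions and lists without Irf8 or Cebpb were added after seeing the data. Genes came from the RefSeq table of GRCm38.p6, without strand, exons or introns; 409 of 420 entries of 19 gene lists matched a protein-coding gene, and some genes are in several lists. Start windows were known for 16457 of 20665 genes, with none on chromosome 18. No genome sequence was used, so distal regions are given by position.

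Named regions were the 12 strong gains absent from both wild types and 12 strong losses in both wild types with the highest −log10 p, 1 per gene, 6 shared regions with the widest rank difference each way, 6 gained and 6 lost promoters, up to 4 members per gene list, Flt3, Runx1, and the 6 genes with the most gained and lost regions. Not every one is printed, and further regions of list genes were picked after their values were seen. The members and lists were chosen with earlier results of these data known. No p-value was computed, since each group had 1 list.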

Additional observations from a re-analysis of the deposited data

How the results depend on the processing

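Counts of gained, lost and strong regions moved with the length of the lists and with the wild type chosen. With the better 50% of each list, 9207 regions were gained and 4167 lost, 22 gains and 4 losses were strong, and 4629 gains were absent from both wild types, of which 9.01% had a peak in set 2 Flt3-ITD; fewer peaks entered by construction. With the set 2 wild type, 20488 regions were lost, and 105 gains and 359 losses were strong. Losses outnumbered gains there, where the wild-type list was the longer one. Why that list was longer, and why more losses were strong, was not tested. Taking strong as the top 10% left 9 gains and 2 losses, and the top 50% gave 3258 and 922. Equal numbers of merged regions, added after seeing the data, gave 12470 gains, 40 strong gains and 7 strong losses, and 16.27% in place of 9.95% for recurrence in set 2 Flt3-ITD. The other 27 of 44 such values stayed within 1.5 times (counts) or within the 95% binomial interval (Wilson) of the share in the main setting; 9.01% lies outside that interval, though by little. No paired analysis was possible because each group has 1 list and the columns carry no replicate; for the same reason no replicate could be left out. Read depth was unknown, so a peak missing from a list was not shown to be closed chromatin.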
